A study of Mus musculus with 18 samples.

Results

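The chemokine genes and the genes of their receptors were taken from a table of muscle RNA by symbol: every Ccl, Cxcl, Ccr or Cxcr gene with a number, together with Cx3cl1, Cx3cr1 and Xcl1. The rule found 56 of the 23420 genes in the table, 38 ligand and 18 receptor genes. Of these, 23 (16 ligands and 7 receptors) had a mean normalized count of 10 or more over the 9 RNA libraries, the level at which a gene entered the tests. A normalized count is the number of reads on a gene divided by a size factor that puts the libraries on a common scale. The RNA was from hindlimb muscle of female C57BL/6J mice killed at 2, 20 or 28 months of age (2 m, 20 m and 28 m), 3 mice per age with 1 library each, and the labels name no treatment or genetic change. DNA of the same mice was used for MBD-seq, in which a methyl-CpG-binding domain captures methylated fragments, from hindlimb muscle and from splenic T cells, and the DNA of 3 mice was pooled for each age before capture. Differences between ages in RNA therefore rest on 3 mice per group, and those in methylation on 1 pool per group.

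Chemokines are small secreted or membrane-bound proteins that steer the movement of leukocytes. They are sorted into CC, CXC and CX3C families by the spacing of conserved cysteines, and they signal through receptors coupled to inhibitory G proteins, whereas atypical receptors such as Cxcr7 bind ligands and clear them. Some ligands are made steadily and place cells in resting tissue, such as Cxcl12, while others, such as Ccl2 and Cxcl10, are switched on by inflammatory cytokines through NF-kB and interferon regulatory factors. In muscle, Ccl2 and its receptor Ccr2 are best known for bringing blood monocytes into injured fibres, and Cxcl12 for its action on muscle progenitors.

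The RNA libraries held 20203833 to 71115244 reads in genes, and 1 read was worth 0.545 to 2.23 normalized counts. Myofibre markers dominated every library, with Acta1, the actin of skeletal muscle, at 1006618 to 1406635 normalized counts, as the tissue label says. T-cell markers were near 0, with a summed level of 5.29 to 34.0 normalized counts over 7 genes, and so were NK-cell markers, at 0 to 20.1 over 5 genes. Replicate 1 at 2 m stood apart, with a summed level of 2882 for 6 neutrophil markers against 39.2 to 96.2 in the other 8 libraries, of 2764 for 8 marrow-precursor markers against 3.74 to 45.8, and of 4137 for 7 bone and cartilage markers against 375 to 1695. The 3 libraries numbered 3 stood apart in their totals, with normalized sums over genes of 38131628 to 39602607 against 47840578 to 52950481 in the other 6. Where the call of a member, or of another gene named below, changed without these libraries, the value without them is given. In bulk tissue, fewer cells of a type and less RNA per cell cannot be told apart.

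Compared per kb of exon, the highest members were Cxcl14, at 931 normalized counts per kb, Cxcl12, at 675, the eosinophil attractant Ccl11, at 546, Cxcr7, at 331, and Ccl6, a mouse chemokine of myeloid cells, at 178. Cx3cl1 came next at 58.9 and the lowest of the 23 was Ccr1 at 3.67. These are means over the 9 libraries, and between 2 m, 20 m and 28 m the per-kb level of Cxcl12 was 628, 668 and 730 and that of Cxcl14 was 1016, 829 and 948. That of Cx3cl1 was 19.7, 54.7 and 102, so its rank did not hold at each age. At 2 m Ccl25 stood above it at 72.4, and at 28 m Cxcl10 did so at 112.

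**Figure D1:**
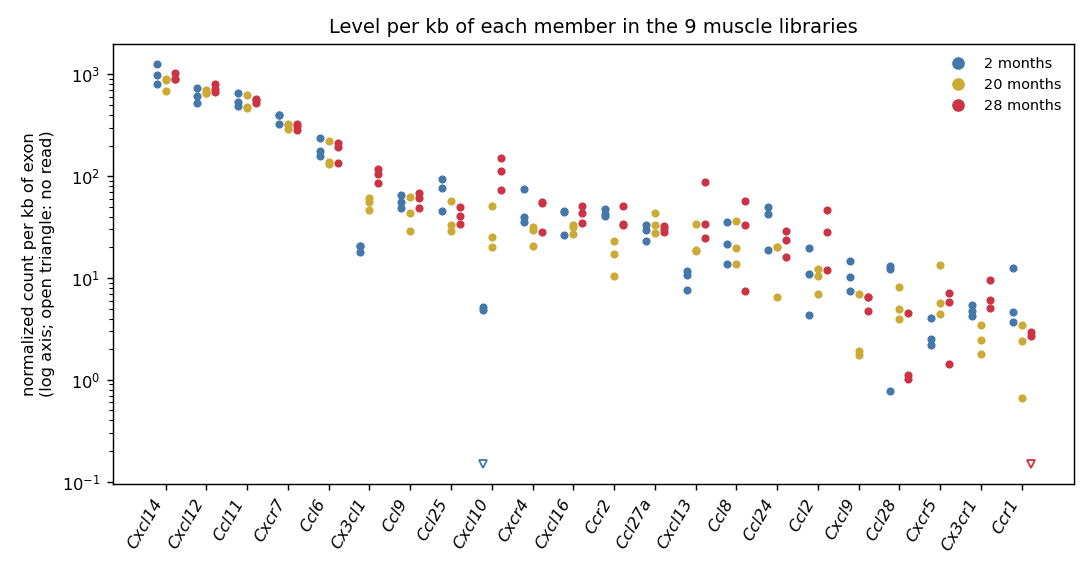
Normalized count per kb of exon (log axis) of 22 members in each of the 9 muscle libraries, coloured by age and ordered by their mean. By their means, though not in every single library, Cxcl14, Cxcl12, Ccl11, Cxcr7 and Ccl6 lie above the other members. The points of Cx3cl1 and Cxcl10 separate by age, and open triangles mark the libraries with no read (Cxcl10 at 2 m and Ccr1 at 28 m).

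The 5 most abundant members were not called by limma, edgeR or DESeq2 in any comparison, and Cxcr7 alone had an unadjusted p under 0.05 (limma, at 20 m and at 28 m against 2 m). Cxcl14, a ligand of skin and muscle whose receptor is unsettled, stood at 2314, 1456 and 1801 normalized counts at 2 m, at 1664, 1618 and 1262 at 20 m and at 1664, 1895 and 1634 at 28 m. Cxcl12, the ligand of Cxcr4 and Cxcr7, stood at 4438, 5288 and 3761 at 2 m, at 4991, 4699 and 4651 at 20 m and at 4826, 5109 and 5745 at 28 m. The 3 ages overlapped for both ligands. Without replicate 2 at 2 m, Cxcl14 was called lower at 20 m (log2 difference -0.44, adjusted p = 0.0497) and Cxcl12 higher at 28 m (0.35, adjusted p = 0.0347). Without replicate 1 at 2 m the difference of Cxcl14 was -0.11 (adjusted p = 0.663), and without the libraries numbered 3 that of Cxcl12 was 0.0355 (adjusted p = 0.885), the highest adjusted p over all alternatives for each. Ccl11 was at 580, 522 and 702 at 2 m, at 504, 515 and 670 at 20 m and at 558, 606 and 619 at 28 m, and its log2 difference at 28 m against 2 m was -0.0062 (95% interval -0.31 to 0.30). Ccl6 was at 225, 338 and 254 at 2 m, at 316, 199 and 190 at 20 m and at 194, 305 and 279 at 28 m. Cxcr7 was at 753, 920 and 928 at 2 m, at 749, 742 and 672 at 20 m and at 757, 729 and 662 at 28 m. Every 20-m value of Cxcr7 lay below every 2-m value, by 0.26 ± 0.11 (SE) on the log2 scale at adjusted p = 0.123, and the 28-m values overlapped those at 2 m. Without the libraries numbered 3, the difference of Cxcr7 was -0.16 at either older age (adjusted p = 0.478 and 0.527).

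Among the 23 members, 4 differed among the 3 ages by limma's moderated F test on log2(normalized count + 1): the ligands Cx3cl1, Cxcl10 and Cxcl13 and the receptor Ccr2. Over all 13178 genes tested, 16.0% were called. The calls of Cx3cl1, Cxcl10 and Ccr2 held in every alternative, whereas that of Cxcl13 was lost when any of 8 of the 9 libraries was left out. The share of all genes called fell to 4.63% after rescaling to the same sum (3 members called), to 6.62% without the libraries numbered 3 (4 called, with Ccl28 in place of Cxcl13) and to 9.28% without replicate 1 at 2 m (3 called), so how the members stood to the background depended on the setting. At 20 m against 2 m, Cx3cl1 and Cxcl10 rose and Ccr2 fell, with 9.42% of all genes called higher and 7.13% called lower. At 28 m against 2 m, Cx3cl1, Cxcl10 and Cxcl13 rose, with 7.53% of all genes called higher. At that age 0 members were called lower by limma, edgeR or DESeq2, 2 (Ccl25 and Cxcr7) were lower at an unadjusted p under 0.05 beside 13.5% of all genes, and 6.24% of all genes were called lower. By the study's own kind of rule, a fold over 2 with an unadjusted p under 0.05, 6 members passed at 20 m (Cx3cl1, Cxcl10 and Cxcl13 higher, Ccr2, Cxcl9 and Ccl24 lower; 5.17% of all genes passed) and 3 at 28 m (Cx3cl1, Cxcl10 and Cxcl13; 5.14% of all genes). The median log2 difference of the members was -0.26 at 20 m and -0.0062 at 28 m, beside -0.0171 and -0.0113 over all genes tested. Of the 7 receptors, 6 lay below 0 at 20 m with a median of -0.81, and 10 of the 16 ligands did so with a median of -0.0758, beside 52.1% of all genes.

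**Figure D2:**
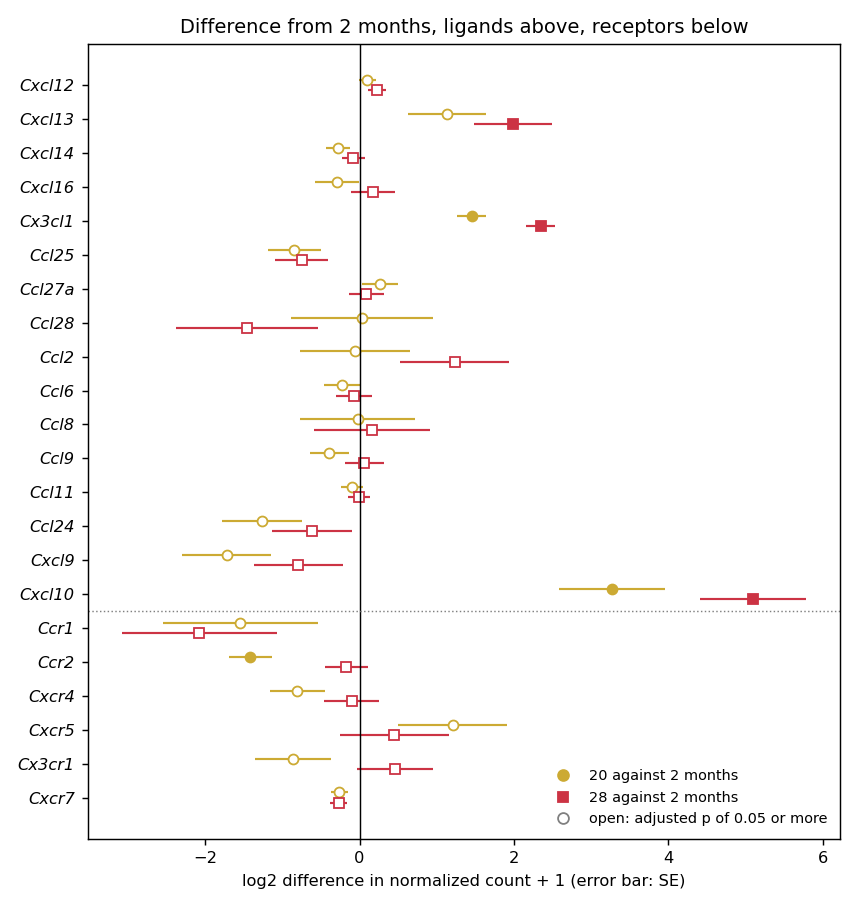
Log2 difference from 2 m of each of 22 members at 20 m (circles) and 28 m (squares), with SE bars. Filled symbols passed at adjusted p under 0.05 (limma): Cx3cl1 and Cxcl10 lie to the right at both ages, Cxcl13 at 28 m, and Ccr2 lies to the left at 20 m with a log2 difference of -1.41.

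The 300 bases around the start of each of the 4 called genes are shown because their CpGs and motifs are described below, and that of Cxcl9, the neighbour of Cxcl10, was added after its values were seen. Each runs from 250 bases before the start to 50 bases after it, is given 5′ to 3′ on the gene's strand from RefSeq (GRCm38.p6), and carries its CpGs, the sites at which methylated DNA is captured, in capitals. Cx3cl1 is at chr8:94771930-94772229 (plus strand), Cxcl10 at chr5:92348840-92349139 (minus), Cxcl9 at chr5:92328030-92328329 (minus), Cxcl13 at chr5:95956689-95956988 (plus) and Ccr2 at chr9:124101933-124102232 (plus).
Cx3cl1: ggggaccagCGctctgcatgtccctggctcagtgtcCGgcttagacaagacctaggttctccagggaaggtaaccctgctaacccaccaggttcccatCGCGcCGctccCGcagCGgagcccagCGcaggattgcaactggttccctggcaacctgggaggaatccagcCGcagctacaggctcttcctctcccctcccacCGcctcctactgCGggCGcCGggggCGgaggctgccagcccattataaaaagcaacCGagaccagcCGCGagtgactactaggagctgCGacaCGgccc
Cxcl10: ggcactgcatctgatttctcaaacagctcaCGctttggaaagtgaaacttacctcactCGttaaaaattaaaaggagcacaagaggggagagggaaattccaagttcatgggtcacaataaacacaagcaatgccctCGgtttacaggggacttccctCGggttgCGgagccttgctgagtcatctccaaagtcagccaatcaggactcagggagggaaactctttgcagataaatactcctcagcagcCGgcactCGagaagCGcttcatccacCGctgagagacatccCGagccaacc
Cxcl9: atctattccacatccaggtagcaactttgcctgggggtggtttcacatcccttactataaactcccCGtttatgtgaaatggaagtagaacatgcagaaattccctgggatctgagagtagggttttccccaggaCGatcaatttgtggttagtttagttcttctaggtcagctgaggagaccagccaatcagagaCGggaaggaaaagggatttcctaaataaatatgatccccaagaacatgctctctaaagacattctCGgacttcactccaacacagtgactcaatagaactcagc
Cxcl13: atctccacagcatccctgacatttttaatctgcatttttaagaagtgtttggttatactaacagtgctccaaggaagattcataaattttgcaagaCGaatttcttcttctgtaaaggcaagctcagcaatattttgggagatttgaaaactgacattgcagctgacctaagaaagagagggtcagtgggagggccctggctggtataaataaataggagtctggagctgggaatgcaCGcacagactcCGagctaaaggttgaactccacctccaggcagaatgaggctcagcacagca
Ccr2: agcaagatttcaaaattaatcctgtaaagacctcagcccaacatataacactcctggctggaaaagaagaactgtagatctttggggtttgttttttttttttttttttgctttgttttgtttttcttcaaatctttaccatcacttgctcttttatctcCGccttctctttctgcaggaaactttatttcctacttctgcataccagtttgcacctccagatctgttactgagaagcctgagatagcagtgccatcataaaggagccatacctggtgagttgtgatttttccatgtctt

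The starts differ in CpG content, with 19 CpGs at Cx3cl1, 10 at Cxcl10, 4 at Cxcl9, 3 at Cxcl13 and 1 at Ccr2. The median was 4 over the 17 members with a promoter in the table and 14 over 17355 promoters of the genes measured. The letters GGGANNNNCC, a loose form of the NF-kB motif searched on both strands, were found at Cxcl10, Cxcl9 and Cxcl13, and also at Ccl27a and Ccr1, which makes 5 of 17 members beside 23.2% of all promoters. The letters GAAANNGAAA, the core of the interferon-stimulated response element, were found at Cxcl10 and Cxcl14, 2 of 17 beside 3.38% of all promoters. TATAAA was found in 8 of 17 members and in 13.02% of all promoters. These motifs were chosen with the sequences at hand, and a match is a description of letters and no evidence of binding.

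Cx3cl1 had the lowest adjusted p of the 23 members. It encodes fractalkine, a ligand anchored in the membrane of endothelial and other cells that also exists as a shed form. Its normalized counts were 64.6, 56.4 and 65.0 at 2 m, 148, 177 and 191 at 20 m, and 268, 327 and 370 at 28 m. The groups did not overlap at any pair of ages, and the means were 62.0 ± 4.86, 172 ± 22.3 and 322 ± 51.4 (SD, n = 3 each). Cx3cl1 rose by a log2 difference of 1.45 ± 0.19 (SE) at 20 m against 2 m (adjusted p = 0.000303) and of 2.35 ± 0.19 at 28 m against 2 m (adjusted p = 9.375e-06). Between 20 m and 28 m the difference was 0.89 ± 0.19, with an adjusted p of 0.07 that missed the threshold. It passed by DESeq2 (adjusted p = 0.00204), without replicate 2 at 2 m (adjusted p = 0.0462) and with library number as a block. Over all alternatives the adjusted p reached 0.714. Cx3cl1 lies on chromosome 8 (94772180 to 94782427, plus strand, GRCm38), next to Ccl17 and Ccl22, which were below 10 normalized counts.

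The receptor of fractalkine was not called. Cx3cr1, carried by resident macrophages and monocytes, was at 17.8, 15.9 and 20.2 normalized counts at 2 m, at 9.34, 6.75 and 13.1 at 20 m and at 22.8, 35.9 and 18.9 at 28 m. Every 20-m value lay below every other value, and the test gave a log2 difference of -0.86 ± 0.49 at 20 m against 2 m (adjusted p = 0.259) and of 1.32 ± 0.49 at 28 m against 20 m (adjusted p = 0.358). The log2 ratio of Cx3cl1 over Cx3cr1 within a library was 1.64 to 1.80 at 2 m, 3.77 to 4.52 at 20 m and 3.15 to 4.22 at 28 m. It was higher in all 3 libraries of each older age than in all 3 at 2 m (exact permutation p = 0.1, two-sided, the smallest that 3 against 3 allows). Among 3 such ratios, compared between ages in 9 tests, the lowest adjusted p was 0.3. The ratio of Ccl2 over Ccr2 was -5.23 to -3.18 at 2 m, -2.96 to -2.54 at 20 m and -3.54 to -1.63 at 28 m (exact permutation p = 0.1 and 0.2 against 2 m, the latter with overlap). That of Cxcl13 over Cxcr5 was 0.20 to 1.12, -0.71 to 1.34 and 0.56 to 3.09, with overlap at both older ages (exact permutation p = 1.0 and 0.2).

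Cxcl10 had the largest log2 differences of the 23 members against 2 m. It attracts activated T and NK cells through Cxcr3 and is a well-known target of interferons. Its normalized counts were 0, 5.29 and 5.78 at 2 m, 28.0, 55.7 and 22.3 at 20 m, and 165, 81.5 and 125 at 28 m. The 3 ages did not overlap, and the reads behind them were 11 in all at 2 m, 89 at 20 m and 212 at 28 m, so the level at 2 m rests on few reads. The library with 0 reads was replicate 1 at 2 m, where 0 reads allow up to 6.69 normalized counts (3 reads, counting error only). Cxcl10 rose by 3.27 ± 0.69 at 20 m (adjusted p = 0.00705) and by 5.10 ± 0.69 at 28 m (adjusted p = 0.000447), both against 2 m. Without replicate 1 at 2 m the differences were 2.37 (adjusted p = 0.00855) and 4.20 (adjusted p = 0.000344), and over all alternatives the highest adjusted p were 0.039 and 0.00745. From 20 m to 28 m the difference was 1.83 ± 0.69 (adjusted p = 0.358).

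**Figure D3:**
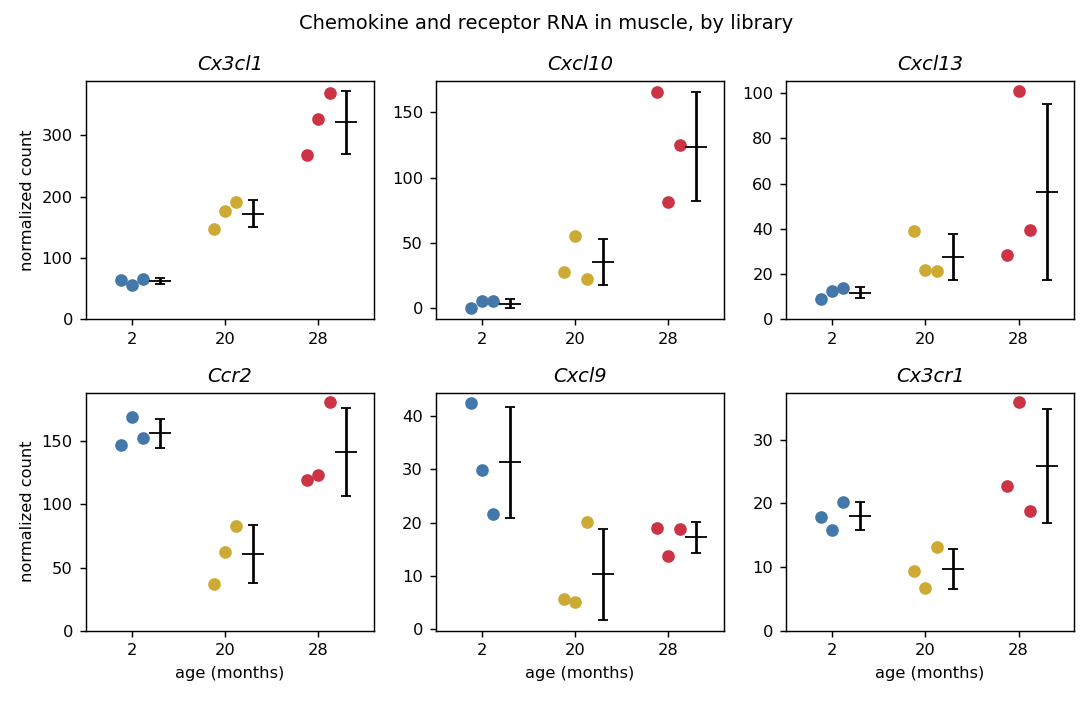
Normalized counts (linear axes) of Cx3cl1, Cxcl10, Cxcl13, Ccr2, Cxcl9 and Cx3cr1 in each library at 2, 20 and 28 months, with the mean ± SD of 3 libraries beside the points. Cx3cl1 and Cxcl10 separate at all 3 ages, 1 library at 28 m reaches 101 for Cxcl13, and Ccr2 is lowest at 20 m (37.4 to 82.8).

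Cxcl9, which shares the receptor Cxcr3 and starts 20.8 kb from Cxcl10 on chromosome 5 on the same strand, was not called in any comparison. Its normalized counts were 42.3, 30.0 and 21.7 at 2 m, 5.60, 5.06 and 20.2 at 20 m, and 19.0, 13.8 and 18.9 at 28 m. All values at 2 m lay above all values at either older age, by a log2 difference of 1.72 ± 0.58 over 20 m (adjusted p = 0.0596) and of 0.79 ± 0.58 over 28 m (adjusted p = 0.405). Without replicate 3 at 20 m, Cxcl9 was called lower at 20 m (log2 difference -2.30, adjusted p = 0.0232, with a range of 0.0232 to 0.203 over all alternatives). Per kb of exon, the mean level of Cxcl9 was 10.8, 3.54 and 5.93 normalized counts at 2 m, 20 m and 28 m and that of Cxcl10 was 3.35, 32.1 and 112. Cxcl11, the other ligand of Cxcr3, had means of 1.17, 7.59 and 2.64 normalized counts at 2 m, 20 m and 28 m from 31 reads in all, and Cxcr3 itself had 19 reads.

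Cxcl13, which draws B cells through Cxcr5 and is made by stromal cells of lymphoid follicles, was at 8.92, 12.3 and 13.7 normalized counts at 2 m. It was at 39.2, 21.9 and 21.2 at 20 m and at 28.5, 101 and 39.6 at 28 m. Both older ages lay above all 2-m libraries, and replicate 2 at 28 m was far above the other 2. The rise at 28 m was 1.99 ± 0.50 (adjusted p = 0.0208), and the difference at 20 m was 1.13 ± 0.50 (adjusted p = 0.145). The call at 28 m was lost without replicate 2 at 28 m (log2 difference 1.47, adjusted p = 0.0616), without replicate 1 at 2 m (1.82, adjusted p = 0.0632) and without the libraries numbered 3 (2.25, adjusted p = 0.0966), and over all alternatives the adjusted p ran from 0.00167 to 0.0966. The call in the F test (adjusted p = 0.0425) held in 8 of 19 other settings and was lost without replicate 1 at 2 m (adjusted p = 0.1151) and without the libraries numbered 3 (adjusted p = 0.1475).

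Markers of B and plasma cells varied between libraries of 1 age, and their part in the result was not tested. Their summed level over 6 genes was 263, 88.1 and 47.7 at 2 m, 54.2, 87.7 and 166 at 20 m, and 169, 139 and 191 at 28 m. In replicate 2 at 28 m, where Cxcl13 was highest, the B-cell genes Cd79a and Ms4a1 stood at 1.38 each and Cd79b at 15.2, and of the plasma-cell genes Mzb1 stood at 18.0 and Igj, the joining chain of antibodies, at 102. Igj was higher, at 125, in replicate 3 at 28 m, where Cxcl13 was at 39.6, and at 28.5 in replicate 1 at 28 m. Cxcr5 was at 5.78 to 10.6 at 2 m, 11.8 to 35.4 at 20 m and 3.77 to 19.0 at 28 m, with log2 differences from 2 m of 1.21 ± 0.71 and 0.45 ± 0.71 (adjusted p = 0.268 and 0.724). Cxcr5 shares 120 bases of exon with Bcl9l on the other strand, and whether reads there were counted for it is not known here.

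Ccr2, the receptor by which inflammatory monocytes leave the marrow and enter tissue, fell at 20 m and stood near its young level at 28 m. Its normalized counts were 147, 169 and 152 at 2 m, 37.4, 62.4 and 82.8 at 20 m, and 120, 123 and 181 at 28 m. Every 20-m library lay below every library of the other ages, and the 28-m and 2-m groups overlapped. Ccr2 fell by 1.41 ± 0.28 on the log2 scale at 20 m against 2 m (adjusted p = 0.00512), and its difference at 28 m against 2 m was -0.17 (95% interval -0.78 to 0.44; adjusted p = 0.741). The difference at 28 m against 20 m was 1.25 ± 0.28 (adjusted p = 0.0976, and 0.0112 by DESeq2), and it also passed with library number as a block. The call at 20 m held without replicate 1 at 2 m (adjusted p = 0.0168), the library with marrow markers, and in all other alternatives (adjusted p of at most 0.0208).

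Of 10 macrophage markers, 2 fell and 0 rose at 20 m by limma, beside 7.13% of all genes called lower. Also, edgeR and DESeq2 called 2 each, beside 2200 and 2558 of 13178 genes in either direction. C1qa and C1qb, subunits of complement C1q made by macrophages, fell by 0.59 (adjusted p = 0.0387) and 0.61 (adjusted p = 0.0171) on the log2 scale. Both calls were lost without replicate 1 at 2 m (adjusted p = 0.104 and 0.0522) and without the libraries numbered 3 (adjusted p = 0.275 and 0.101). The log2 differences of the other 8, none called, ran from -1.13 for Fcgr1 to 0.25 for Cd163, with -0.0264 for Emr1 and 0.23 for Lyve1. At an unadjusted p under 0.05, 3 of the 10 passed, beside 31.5% of all genes. The summed level of the 10 was 2698 to 3751 at 2 m, 2511 to 2687 at 20 m and 2444 to 3516 at 28 m. That of 6 monocyte markers was 582 to 923, 452 to 605 and 528 to 787, of which F13a1 alone made up 415 to 793. Plac8, a gene of monocytes and other leukocytes, was at 29.96 to 35.7 at 2 m, 8.44 to 20.5 at 20 m and 29.0 to 38.0 at 28 m, with a log2 difference of -1.12 at 20 m against 2 m that was not called (adjusted p = 0.088). Ms4a6c and F13a1 overlapped between 2 m and 20 m, with log2 differences of -0.565 and -0.283. Ly6c2 and Chi3l3 were at 80.2 and 252 in replicate 1 at 2 m and at most 7.47 and 24.9 elsewhere. Their log2 differences at 20 m were -0.192 and -1.85, and none of these was called. The part of these cells in the result was not tested.

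The other receptors were not called at any age. Cxcr4, the signalling receptor of Cxcl12, was at 136, 72.2 and 64.3 normalized counts at 2 m, at 54.2, 37.1 and 57.2 at 20 m and at 101, 99.4 and 51.0 at 28 m. All 20-m values of Cxcr4 lay below all 2-m values, with a log2 difference of -0.81 ± 0.36 (adjusted p = 0.141), or -0.48 without replicate 1 at 2 m. Ccr1, a myeloid receptor, was at 35.7 in replicate 1 at 2 m, the library with neutrophil and marrow markers, and at 0 to 12.99 in the other 8.

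The CC ligands that draw monocytes, eosinophils and lymphocytes were not called either. Ccl2, the main ligand of Ccr2, was at 8.92, 3.52 and 15.9 at 2 m, at 5.60, 8.44 and 9.81 at 20 m and at 38.0, 9.67 and 22.6 at 28 m, and the ages overlapped. Its log2 difference at 28 m against 2 m was 1.23 ± 0.71 (95% interval -0.30 to 2.77; adjusted p = 0.281). Ccl24, an attractant of eosinophils, was at 24.5, 65.2 and 55.6 at 2 m and at 26.2, 8.44 and 26.2 at 20 m (log2 difference -1.26 ± 0.52, adjusted p = 0.117). Ccl9, a myeloid chemokine of the mouse, ranged from 87.7 to 204, and Ccl8 from 3.80 to 29.0, with overlap between all ages.

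Of the ligands that place cells in resting tissue, 4 more were measured. Ccl25, the ligand that guides T cells to gut and thymus, was at 98.1, 58.2 and 121 at 2 m, at 72.9, 37.1 and 42.5 at 20 m and at 51.2, 63.5 and 43.4 at 28 m. Its log2 differences from 2 m were -0.85 ± 0.34 and -0.75 ± 0.34 (adjusted p = 0.112 and 0.175), or -0.53 and -0.40 without the libraries numbered 3, and the former was called without replicate 2 at 2 m (-1.14, adjusted p = 0.0426, with a range up to 0.476 over all alternatives). Ccl28, a ligand of mucosal surfaces, was at 49.0, 45.8 and 2.89 at 2 m, so 1 library of the group lay far below the other 2, and it ranged from 3.80 to 30.5 at the older ages. Its log2 difference at 28 m against 2 m was -1.45 (adjusted p = 0.332), and it was called without replicate 3 at 2 m (-2.67, adjusted p = 0.028) and without the 3 libraries numbered 3 (-3.28, adjusted p = 0.0242), with a range up to 0.667 over all alternatives. Ccl27a, a ligand of skin, ranged from 75.8 to 142 and Cxcl16, a membrane-bound ligand of Cxcr6, from 47.6 to 92.5. Both share exon bases with a gene on the other strand, 7 bases with Il11ra1 and 552 bases with Zmynd15. Whether reads on the shared bases were counted for them is not known here.

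At 28 m against 20 m, 0 members were called by the main limma fit or by edgeR, and 0.379% of all genes were called by that limma fit. At an unadjusted p under 0.05, 4 members were higher at 28 m (Cx3cl1, Ccr2, Cx3cr1 and Cxcl10), beside 5.15% of all genes. DESeq2 called 3 of these (Cx3cl1, adjusted p = 0.00204; Cxcl10, adjusted p = 0.00465; Ccr2, adjusted p = 0.0112), beside 0.933% of all genes called higher by it. With library number as a block, limma called Cx3cl1 and Ccr2, beside 64 of 13178 genes called higher. By the rule of fold and unadjusted p, 3 members passed (Ccr2, Cx3cr1 and Cxcl10) beside 1.31% of all genes. The members' median log2 difference was 0.37 with 18 of 23 above 0, beside -0.0026 and 49.33% over all genes. This comparison shares its 20-m libraries with that of 20 m against 2 m, in which the members' median was -0.26.

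The other 33 members lay below a mean of 10 normalized counts and were not tested. Of these, 10 had no read in any library: Ccl20, Ccl21a, Ccl21b, Ccl21c, Ccl26, Ccl27b, Cxcl2, Cxcl3, Cxcl17 and Xcl1. Copies of Ccl21 and Ccl27 are nearly identical in the mouse, and reads that fit several places were not counted. The other 23 had means up to 7.31, the value of Ccr9. Among them, Ccl7, a monocyte attractant beside Ccl2 in the chromosome 11 cluster, had 11, 7 and 23 reads at 2 m, 20 m and 28 m (3.84 ± 1.79, 3.62 ± 4.23 and 12.5 ± 4.57 normalized counts). Cxcr6, a receptor of resident lymphocytes, was at 0.59 ± 1.02, 2.29 ± 0.94 and 6.09 ± 2.03 normalized counts from 18 reads, and Cxcl1, a neutrophil attractant, was at 11.8 ± 7.53, 3.10 ± 4.01 and 4.83 ± 1.80 from 50 reads in all.

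Genes around the chemokine system were read in 4 lists. Of 10 tested atypical receptors and other genes outside the symbol rule, 2 fell at 20 m against 2 m, beside 7.13% of all genes. These were Cd74, the receptor of Mif and chaperone of MHC class II, by 0.40 (adjusted p = 0.013), and Rarres2, the chemerin precursor, by 0.51 (adjusted p = 0.0436). The call of Rarres2 was lost without replicate 1 at 2 m (adjusted p = 0.123), and both were lost without the libraries numbered 3 (adjusted p = 0.114 and 0.225). Of 13 tested genes of receptor signalling, from Gnai2 to Plcb3, 0 were called against 2 m by limma, edgeR or DESeq2, beside 16.6% and 13.8% of all genes called by limma at 20 m and 28 m in either direction. At an unadjusted p under 0.05, 1 passed at 20 m and 2 at 28 m, beside 31.5% and 28.2% of all genes. Of 13 tested genes of leukocyte adhesion, Selplg, the selectin ligand of leukocytes, fell by 1.87 at 20 m (adjusted p = 0.0341), and Icam1, an endothelial ligand of integrins, rose by 0.72 at 28 m (adjusted p = 0.013), beside 7.13% of all genes called lower at 20 m and 7.53% called higher at 28 m. Without replicate 1 at 2 m the call of Selplg was lost (adjusted p = 0.111), and without the libraries numbered 3 both were (adjusted p = 0.0629 and 0.0733).

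Among 12 tested inducers and genes of NF-kB, 2 rose and 1 fell at 20 m, beside 9.42% and 7.13% of all genes, and 3 rose and 1 fell at 28 m, beside 7.53% and 6.24%. Nfkb2, a subunit of the non-canonical NF-kB pathway, was at 419, 469 and 471 normalized counts at 2 m, at 770, 776 and 796 at 20 m and at 1404, 1265 and 1385 at 28 m, with no overlap between ages and log2 differences from 2 m of 0.79 (adjusted p = 0.000194) and 1.58 (adjusted p = 1.232e-06). Relb, its partner, rose by 0.94 (adjusted p = 0.00286) and 1.15 (adjusted p = 0.000752). The inhibitors Tnfaip3 and Nfkbia fell, the former by 0.74 at 20 m (adjusted p = 0.0118) and the latter by 0.47 at 28 m (adjusted p = 0.0208). The call of Nfkbia was lost without replicate 1 at 2 m (adjusted p = 0.0731) and that of Tnfaip3 without the libraries numbered 3 (adjusted p = 0.101), whereas Nfkb2 and Relb were called in all 21 alternatives at both ages. Of the cytokines in the list, Tnf, Il1b, Il6 and Ifng had mean levels of at most 1.92, 1.72, 3.47 and 0.46 at any age, while Il33, an alarmin of stromal cells, was at 217, 306 and 282 at 2 m, 20 m and 28 m and was not called against 2 m (adjusted p = 0.177 and 0.336).

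Methylated DNA at the members' starts was read in the 500-base bin that holds each start. Over the 23 members the median was 3.64, 4.21 and 7.65 normalized counts in muscle at 2 m, 20 m and 28 m, beside 1.82, 1.68 and 5.74 over the starts of 22346 genes. In T cells it was 3.04, 4.87 and 3.96, beside 2.03, 2.43 and 2.64. Capture depends on the number of methylated CpGs in a fragment, which can reach past the bin, so a low value in a bin with few CpGs does not show that they were unmethylated. Bins with few CpGs were not always low, and that of Ccr3, with 1 CpG, had 17, 18 and 17 reads in muscle. With 1 pool per age and tissue, these differences have no replicate check.

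The neighbours Cxcl9 and Cxcl10 differed in every pool. The Cxcl9 bin, with 9 CpGs, read 39.1, 22.7 and 28.0 in muscle and 59.9, 59.6 and 58.2 in T cells at 2 m, 20 m and 28 m. The Cxcl10 bin, with 12 CpGs, read 1.82, 4.21 and 2.55 in muscle and 3.05, 2.43 and 7.93 in T cells. In reads, these were 43, 27 and 44 against 2, 5 and 4 in muscle. In all 6 pools the start of Cxcl9 lay above the upper quartile of all starts, and that of Cxcl10, which holds more CpGs, lay below it.

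The start of Cx3cl1, rich in CpG (33 in the bin), was at 1, 0 and 1 reads in muscle at the 3 ages, of which the 0 at 20 m allows up to 2.53 normalized counts, and at 3, 7 and 8 in T cells. Cx3cr1, with 10 CpGs, was captured in muscle (39.1, 22.7 and 12.7) and little in T cells (2.03, 4.87 and 2.64). Cxcr4, with 25 CpGs, had at most 4 reads in any pool. The bins of Ccr2 and Cxcl13 held only 2 and 4 CpGs and had at most 11 reads.

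Of the 23 starts, those of Cxcl12 and Cxcl14, both rich in CpG, had the largest increases in normalized counts between 2 m and 28 m, in T cells. As a ratio, the increase of Cxcr7 there was larger than that of Cxcl14. The Cxcl12 bin, with 53 CpGs, read 1, 18 and 64 reads in T cells at 2 m, 20 m and 28 m (1.01, 21.9 and 84.6 normalized counts) and 0, 0 and 19 in muscle. The Cxcl14 bin, with 26 CpGs, read 10, 17 and 51 reads in T cells (10.2, 20.7 and 67.4) and 7, 2 and 16 in muscle. Cxcl16, with 30 CpGs, went from 6.09 to 24.3 and 30.4 in T cells, and Cxcr7, with 14, from 3.05 to 17.0 and 25.1. The upper quartile over all starts in T cells went from 14.2 to 19.5 and 25.1. Among the members below 10, the start of Ccr7, the lymph-node homing receptor of T cells, read 50.9, 32.8 and 14.0 in muscle and 2.03, 1.22 and 9.25 in T cells, and that of Ccr4 read 50.04, 30.3 and 24.2 in muscle and 2.03, 17.0 and 25.1 in T cells.

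**Figure D4:**
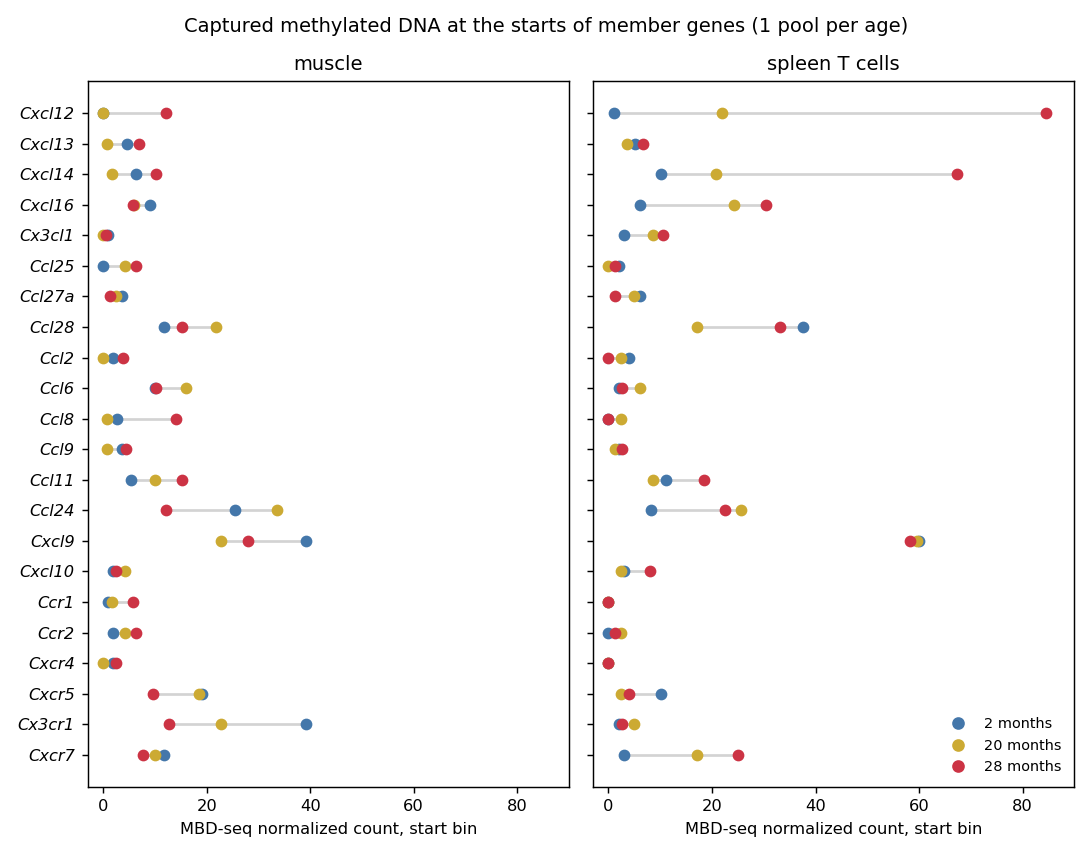
MBD-seq normalized count of the 500-base bin at the start of each of 22 members in muscle (left) and splenic T cells (right), with 1 pool per age shown as 1 point. Cxcl9 is high in both tissues, Cx3cr1 in muscle, and the T-cell points of Cxcl12 and Cxcl14 move to 84.6 and 67.4 at 28 m.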

How the data were processed

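RNA of 9 hindlimb muscles and MBD-captured DNA of 3 muscle and 3 T-cell pools were used. Both deposited tables hold signal values, which the authors obtained by dividing reads per refSeq gene or per 500-base bin by 1 DESeq2 size factor per library. Upstream, Trim Galore, Hisat2 (RNA; TopHat stands in the processing notes) or Bowtie2 (DNA), mm10, htseq-count and bedtools were used, and summary rows of htseq-count (37.9 to 47.7% of the normalized total) were left out. All nonzero RNA values were whole reads (tolerance 0.001), so that reads were recovered. The muscle columns of the DNA table do not name the round of capture, so which round they hold is not known here.

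Ages were compared with limma 3.58.1 (trend, moderated F test and contrasts, R 4.3.3) on log2(normalized count + 1) over all 13178 genes with a mean of 10 or more, with Benjamini-Hochberg adjustment at 0.05. edgeR 4.0.16 and DESeq2 1.42.0 on recovered reads, other scalings, pseudocounts, filters, the replicate block and leaving out libraries were alternatives, and leaving out the 3 libraries numbered 3, and refitting genes outside the members without these or without replicate 1 at 2 m, was chosen after seeing the data. Fits were tested on simulated data. Libraries of 1 number correlated from -0.0401 to 0.161 in their deviations from the group means, and those of different numbers from -0.198 to 0.1165. Among the libraries numbered 3 the correlations were 0.1093, 0.1496 and 0.1613. Numbers were not taken as pairs in the main fit, and the fit with the replicate block is given as an alternative. All members at 10 or more are named except 1, which is not reported here and not plotted (22 of 23 are shown), with values per library for those called and the 5 highest per kb, and for others whose ages are described. Promoter, position and exon length are from RefSeq (GRCm38.p6), which placed 54 of 56 members. The members and lists were chosen with earlier results of these data known.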

Additional observations from a re-analysis of the deposited data

How the results depend on the processing

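Of 21 pairs of member and age comparison that had an unadjusted p under 0.05 or were called in an alternative, none changed sign in 21 alternatives, and 420 of their refitted values kept their side of the threshold while 12 gained a call and 3, all of Cxcl13 at 28 m, lost it. The pairs were chosen from these same fits, so the counts are no independent check. Some refits, such as the block or leaving out a library of the third age, cannot change a difference. Cx3cl1 and Cxcl10 at both older ages and Ccr2 at 20 m were called in all 21. The number of members called at 20 m against 2 m was 3, and 3 to 5 when single libraries were left out, with 5 without replicate 2 at 2 m (Ccl25 and Cxcl14 added). At 28 m against 2 m it was 3, and 2 to 4 with single libraries left out. At 28 m against 20 m it was 0, but 3 by DESeq2, 2 with the replicate block (Ccr2, adjusted p = 0.0348, and Cx3cl1, adjusted p = 0.0399) and 0 to 1 with single libraries left out. The block changed no other member call. Filtering at a mean of 50 left no value for members below it, Cxcl13 among them. The size of the Cxcl10 differences depended on the pseudocount, from 2.21 (5 added) to 4.48 (0.1 added) at 20 m and from 3.92 to 6.34 at 28 m.

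Over all genes, 2103 were called at any age, 2181 at 20 m and 1814 at 28 m against 2 m and 50 at 28 m against 20 m. Rescaling to the same sum gave 610, 586, 554 and 24, and leaving out the libraries numbered 3 gave 873, 1099, 712 and 11. At 28 m against 20 m, DESeq2 gave 228, the replicate block 138 and a fit of the 2 groups alone 76. Leaving out single libraries gave 1223 to 2113, 1081 to 2231, 963 to 1846 and 14 to 88. The cause was not tested. The median log2 difference of methylation at members' starts was -0.21 at 20 m and 0.33 at 28 m in muscle, and 0 and 0.27 in T cells, all against 2 m. In muscle at 20 m it was -0.0851 with the mean of 3 bins, -0.11 after rescaling and -0.22 with a pseudocount of 0.25, and at 28 m 0.72 after rescaling and 0.44 with that pseudocount. In T cells the mean of 3 bins gave 0.35 at 20 m and 0.0953 at 28 m, where rescaling gave 0.0359 and the pseudocount 0.34. At 28 m in muscle, rescaling moved the median over all starts to 1.14 from 0.71.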
